A study of Mus musculus with 6 samples.

Results

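The genes described here are 9 genes of early B-cell development, Cd79a, Cd79b, Pax5, Ebf1, Vpreb1, Vpreb3, Igll1, Rag1 and Dntt, taken by symbol from the 24421 genes of the deposited count table. All 9 had a row, and all 9 were among the 13803 genes that passed a filter on low counts and were tested. They were measured by sequencing of polyadenylated RNA in 6 libraries of bone marrow of C57BL/6 mice with the genotype Dek -/-. Of these, 3 libraries (DEK 1, 2 and 3) came from cells treated with exogenous DEK, a nuclear protein that binds chromatin and can be released by some blood cells, and 3 (vehicle 1, 2 and 3) from cells treated with vehicle. Both groups carry the same loss of Dek, so no library has a normal Dek gene to compare with. Femur marrow had been passed over columns that remove cells bearing markers of mature blood lineages, which leaves a mixture enriched in progenitors. The labels do not give the dose or length of treatment, the age of the mice, or whether libraries of 1 number share an animal or a day.

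B cells arise in marrow through ordered stages. The transcription factor genes Ebf1 and Pax5 commit lymphoid progenitors to the B lineage, and Dntt and Rag1 act while the antibody genes are cut and rejoined. The product of the rearranged heavy chain gene then pairs with a surrogate light chain, to which Vpreb1 and Igll1 contribute, and signals through the proteins of Cd79a and Cd79b. Depletion of mature lineages is meant to take out B cells along with other mature cells, while the earliest B-lineage precursors can remain.

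The promoters of several of these genes are known targets of the E-box protein E2A, encoded by Tcf3, and of EBF1. RefSeq promoters on build GRCm38.p6 were matched by symbol for 8 of the 9 genes, all but Cd79b. In the 250 bases before the start site, the E-box letters CAGGTG, searched on both strands, were found for 4 of the 8 genes, Cd79a, Igll1, Rag1 and Vpreb1, and in 17.2% of all 32841 promoter windows of that length. The EBF1 core letters CCCNNGGG, which read alike on both strands, were found for Igll1 and in 11.8% of all windows, and the longer form TCCCNNGGGA for 0 of the 8 genes and in 0.78% of all windows. The letters TGGGAA of the transcription factor Ikaros were searched too, and found for 2 of the 8 genes, Ebf1 and Rag1, and in 21.6% of all windows. Ebf1 had more than 1 window, so the 8 genes held 9 windows. Counted by window, as for the shares of all windows, the E-box was in 4 of the 9 and the EBF1 core in 1. The longer form was in 0 of the 9 and the Ikaros letters in 2. The 4 windows with an E-box are printed. Their genes cover receptor signalling, recombination and both surrogate light chain genes, but neither Ebf1 nor Pax5. Capitals mark the E-box letters (CAGGTG, or CACCTG where the match is on the other strand) and, in Igll1, the EBF1 core as well. The windows lie at chr7:24897247-24897496 on the plus strand for Cd79a, and on the minus strand at chr2:101649533-101649782 for Rag1, chr16:16863986-16864235 for Igll1 and chr16:16869256-16869505 for Vpreb1.
Cd79a: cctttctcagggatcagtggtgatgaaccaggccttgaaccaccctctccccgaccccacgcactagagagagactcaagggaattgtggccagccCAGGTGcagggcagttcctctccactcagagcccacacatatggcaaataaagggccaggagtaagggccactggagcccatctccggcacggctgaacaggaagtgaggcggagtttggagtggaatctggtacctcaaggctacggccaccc
Rag1: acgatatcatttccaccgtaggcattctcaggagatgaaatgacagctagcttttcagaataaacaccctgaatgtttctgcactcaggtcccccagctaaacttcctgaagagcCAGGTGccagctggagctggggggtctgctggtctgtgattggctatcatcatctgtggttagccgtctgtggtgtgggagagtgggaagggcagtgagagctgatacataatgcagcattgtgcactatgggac
Igll1: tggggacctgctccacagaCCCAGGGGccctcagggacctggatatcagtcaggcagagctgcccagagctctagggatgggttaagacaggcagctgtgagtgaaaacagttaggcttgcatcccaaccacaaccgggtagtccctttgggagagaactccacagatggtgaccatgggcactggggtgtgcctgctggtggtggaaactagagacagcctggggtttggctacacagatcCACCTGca
Vpreb1: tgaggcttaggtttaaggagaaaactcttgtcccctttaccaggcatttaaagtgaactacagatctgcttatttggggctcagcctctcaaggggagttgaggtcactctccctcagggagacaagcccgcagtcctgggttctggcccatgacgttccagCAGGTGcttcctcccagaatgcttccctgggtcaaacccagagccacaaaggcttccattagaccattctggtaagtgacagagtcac
The E-box letters begin 154 bases before the start site in Cd79a, 135 in Rag1, 88 in Vpreb1 and 8 in Igll1. These matches describe letters only, and no binding was measured. The searches took exact letters, so a window without a match may still hold a site that departs from them.

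Depth ran from 42496076 to 49128378 counted reads in the DEK libraries and from 34875736 to 48867857 in the vehicle libraries. Together the 9 genes took 16095, 18073 and 6722 reads in DEK 1, 2 and 3, and 18321, 16979 and 4149 reads in vehicle 1, 2 and 3. That is 0.0379, 0.0368 and 0.0140% of counts with DEK, against 0.0375, 0.0446 and 0.0119% with vehicle, where the widest Wilson 95% interval, which covers counting error alone, had a half-width of 0.00067 percentage points. Both libraries numbered 3 stood apart. Their summed level of 9 neutrophil markers was 62820 CPM (counts made comparable between libraries by TMM scaling) in DEK 3 and 66130 CPM in vehicle 3, while it lay between 5984 and 7916 CPM in the other DEK libraries and between 6230 and 6734 CPM in the other vehicle libraries. Stem and progenitor markers such as Kit were present in every library. Their summed level was 5302 CPM in DEK 3 and 6809 CPM in vehicle 3. The other libraries held 8058 and 8203 CPM with DEK and 8140 and 7339 CPM with vehicle. Most of each sum was Mpo, with 3673.3 CPM in DEK 3 and 4874.5 CPM in vehicle 3, so the sum says little about the other markers. Kit had 153.7 CPM in DEK 3 and 157.7 CPM in vehicle 3, against 272.2 and 252.8 CPM in the other DEK libraries. The other vehicle libraries had 304.9 and 262.4 CPM of Kit. Of the 8 markers, 6 lay below and 0 above the other libraries in both libraries numbered 3, positions that 27.2% and 27% of all genes tested held. In a test of the replicate number, 4 of the 8 passed an adjusted p of 0.05 (edgeR), against 31.6% of all genes tested. Dek itself had 16.5 to 21.8 CPM over the 6 libraries. The labels name no exons that the knockout deletes, so these counts do not check the genotype.

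Exogenous DEK left the B-lineage genes without a detected change. By edgeR's quasi-likelihood test without pairing, 0 of the 9 passed an adjusted p of 0.05, where the background was 0% of all genes tested. An unadjusted p under 0.05 was found for 0 of the 9, against 360 of the 13803 genes tested. Within pairs of equal replicate number, a fit that removes what libraries of 1 number share, 0 of the 9 passed, where the background was 1.28%. In that fit 0 of the 9 had an unadjusted p under 0.05, against 1581 of the 13803 genes. DESeq2 and limma-voom, each without pairing, called 0 of the 9 as well, with backgrounds of 0.441% and 0%. The median log2 fold change of DEK over vehicle within pairs was -0.03 for the 9 genes and -0.0028 for all genes tested, and 4 of the 9 lay above 0. In 0 of the 9 genes did the groups fail to overlap, while 3.78% of all genes tested lay higher in every DEK library than in any vehicle library and 3.41% lower. A missed threshold does not show equal levels. The 95% intervals given gene by gene below are those within pairs and hold only if equal numbers are pairs, which the labels do not state. Without pairing the intervals were wider, with folds of DEK over vehicle between 0.406 and 2.25 for Cd79b, 0.43 and 2.37 for Cd79a, 0.453 and 1.98 for Ebf1, and 0.37 and 2.28 for Pax5. They lay between 0.507 and 1.5 for Igll1, 0.546 and 2.03 for Vpreb1, 0.349 and 2.66 for Vpreb3, 0.273 and 3.26 for Rag1, and 0.47 and 1.6 for Dntt.

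The B-cell receptor signals through a pair of chains. Cd79b, which encodes the Ig beta chain of the B-cell receptor, had 114, 118 and 45.8 CPM in DEK 1, 2 and 3, against 114, 132 and 44.2 CPM in vehicle 1, 2 and 3. Cd79a, which encodes its partner Ig alpha, had 50.1, 43.3 and 24.1 CPM with DEK, against 48.3, 53.0 and 14.9 CPM with vehicle. In both genes the library numbered 3 was the lowest of its group, and the groups overlapped. For Cd79b (chromosome 11, 106311341 to 106314529, minus strand, mm10) the log2 fold change within pairs was -0.04 ± 0.09 (SE), a fold between 0.845 and 1.12 (95% interval; adjusted p = 0.911, edgeR). For Cd79a (chromosome 7, 24897511 to 24902197, plus strand) it was 0.14 ± 0.18, a fold between 0.817 and 1.48 (adjusted p = 0.829, edgeR). Within pairs, Cd79b had the narrowest interval of the 9 genes.

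Of the transcription factor genes, Ebf1 (chromosome 11, 44618100 to 45008096, plus strand), which opens the B-cell programme, had 18.4, 17.7 and 9.07 CPM with DEK, against 19.6, 20.6 and 7.59 CPM with vehicle. Pax5 (chromosome 4, 44531506 to 44710440, minus strand), which maintains B-cell identity, had 188, 309 and 91 reads with DEK, against 263, 251 and 63 reads with vehicle. That made 4.20, 6.09 and 2.11 CPM for Pax5 with DEK, against 5.33, 6.28 and 1.88 CPM with vehicle. Again both libraries numbered 3 were the lowest and the groups overlapped. The log2 fold changes within pairs were -0.03 ± 0.13 (SE) for Ebf1 and -0.09 ± 0.19 for Pax5, with folds between 0.804 and 1.20 and between 0.704 and 1.25 (95% intervals; adjusted p = 0.971 and 0.899, edgeR).

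The surrogate light chain is made before a cell has a light chain of its own. Its gene Igll1 (chromosome 16, 16860671 to 16863985, minus strand) had 7.66, 8.28 and 6.41 CPM with DEK, against 8.88, 11.8 and 4.88 CPM with vehicle. Its neighbour Vpreb1 (chromosome 16, 16868401 to 16869255, minus strand) had 4.51, 4.97 and 3.84 CPM with DEK, against 4.64, 5.95 and 2.02 CPM with vehicle. In both genes DEK 3 lay close to DEK 1 and 2, whereas vehicle 3 lay well below vehicle 1 and 2. The log2 fold changes within pairs were -0.13 ± 0.18 (SE) for Igll1 and 0.17 ± 0.23 for Vpreb1, with folds between 0.693 and 1.21 and between 0.784 and 1.61 (95% intervals; adjusted p = 0.836 for each, edgeR). Vpreb1 is uncertain because Vpreb2 is a near-identical copy, which held 0, 1 and 5 reads with DEK and 6, 10 and 0 reads with vehicle. Vpreb3 (chromosome 10, 75948312 to 75949646, plus strand), a related gene whose protein stays inside B-lineage cells, had 38.3, 43.1 and 14.8 CPM with DEK, against 38.4, 49.7 and 11.8 CPM with vehicle. Its log2 fold change within pairs was 0.03 ± 0.12 (SE), a fold between 0.85 and 1.23 (adjusted p = 0.955, edgeR).

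Rag1 (chromosome 2, 101638252 to 101649532, minus strand) encodes a subunit of the recombinase that cuts antibody and T-cell receptor genes. It had 83.2, 76.0 and 23.0 CPM with DEK, against 83.0, 94.4 and 15.8 CPM with vehicle. Dntt (chromosome 19, 41029275 to 41059525, plus strand), which encodes the polymerase that adds bases at the joints, had 39.4, 38.8 and 26.5 CPM with DEK, against 49.1, 51.4 and 20.4 CPM with vehicle. Both genes were lowest in the libraries numbered 3, Rag1 by far the more. The log2 fold changes within pairs were 0.06 ± 0.15 (SE) for Rag1 and -0.12 ± 0.15 for Dntt, with folds between 0.815 and 1.34 and between 0.723 and 1.17 (95% intervals; adjusted p = 0.917 and 0.814, edgeR). With both libraries numbered 3 left out, the change of Dntt within pairs was -0.36 (adjusted p = 0.0986, edgeR) and that of Igll1 was -0.37 (adjusted p = 0.335, edgeR). Neither passed, although both had an unadjusted p under 0.05, as did 2025 of the 13809 genes tested in that fit. Without pair 1 the changes were -0.02 for Dntt and -0.09 for Igll1, and without pair 2 they turned to 0.03 and 0.09 (adjusted p from 0.932 to 0.997, edgeR).

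**Figure D1:**
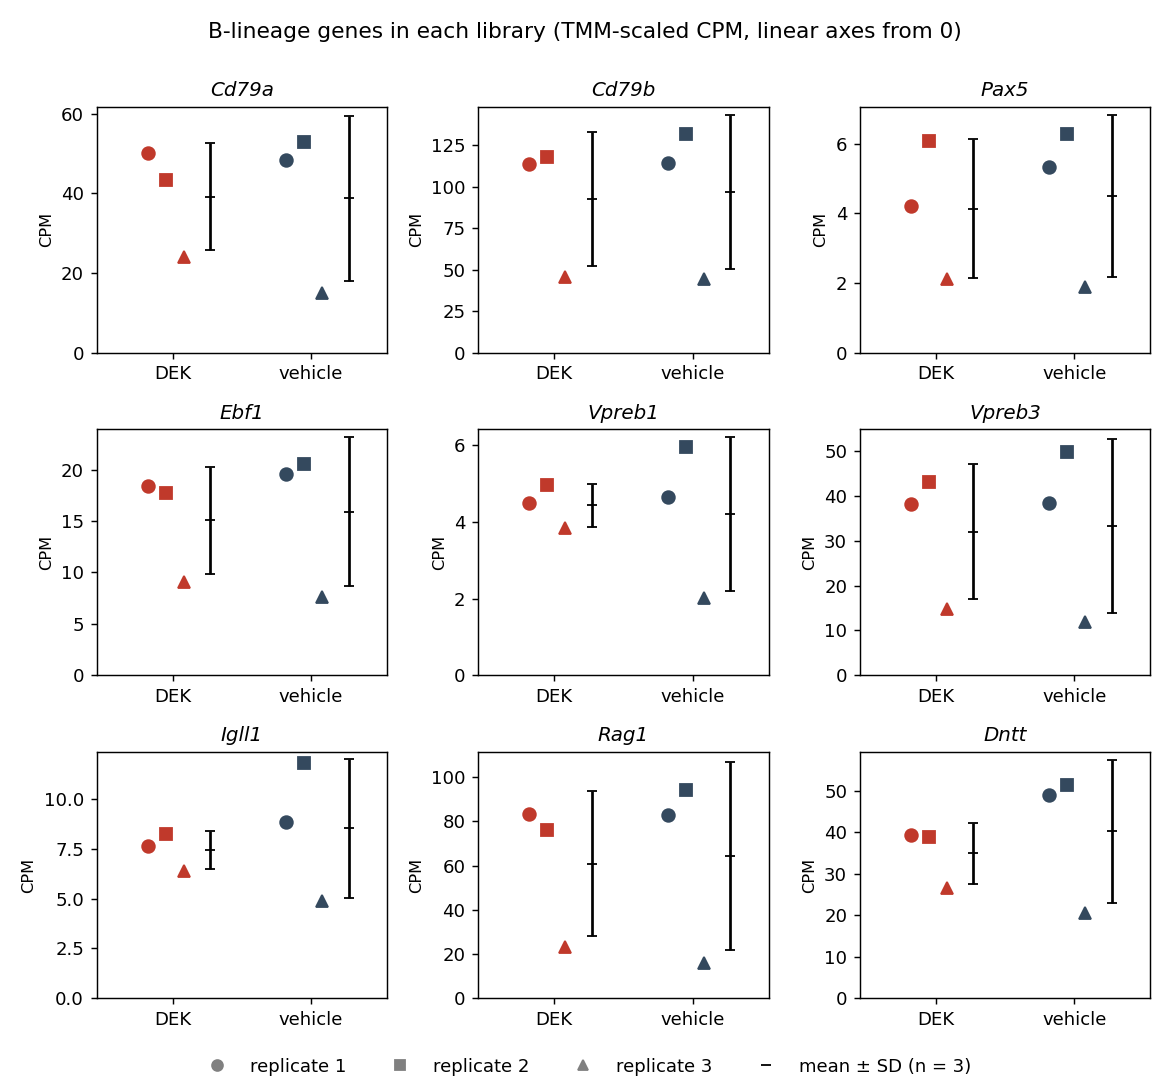
Levels in CPM (linear axes from 0) of the 9 B-lineage genes in each library, DEK at the left and vehicle at the right of each panel, with the replicate number as the symbol and the mean ± SD of 3 libraries as the bar. In every panel the triangle of replicate 3 is the lowest of its group, and the groups overlap.

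The difference between DEK and vehicle took a different sign by replicate number. In pair 2, 0 of the 9 genes were higher with DEK, and the log2 differences ran from -0.51 in Igll1 to -0.04 in Pax5. In pair 3, all 9 were higher with DEK, from 0.05 in Cd79b to 0.91 in Vpreb1, with 0.69 in Cd79a and 0.54 in Rag1. In pair 1, 2 of the 9 were higher, Cd79a by 0.05 and Rag1 by 0.0038, and the lowest was Pax5 at -0.34. Of all genes tested, 46.6, 51.1 and 49.5% were higher with DEK in pairs 1, 2 and 3. The turn between pairs 2 and 3 was not confined to the 9 genes. Of 52 other B-lineage genes, described below, 20, 18 and 34 were higher with DEK in pairs 1, 2 and 3. Of 11 T-cell and innate lymphoid markers 4, 2 and 8 were higher, and of 8 stem and progenitor markers 2, 2 and 3. The medians of the 9 genes were -0.04, -0.26 and 0.37 in pairs 1, 2 and 3, while those of all genes were -0.017, 0.0084 and -0.0028. Each pair holds 1 library per treatment, so the difference between pairs was not tested. Under upper-quartile scaling or the library total alone, Cd79b lay just below 0 in pair 3, which left 8 of 9 higher, and pair 1 then had 4 or 5 of 9 higher. Median-of-ratios (RLE) scaling gave the same counts as TMM.

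**Figure D2:**
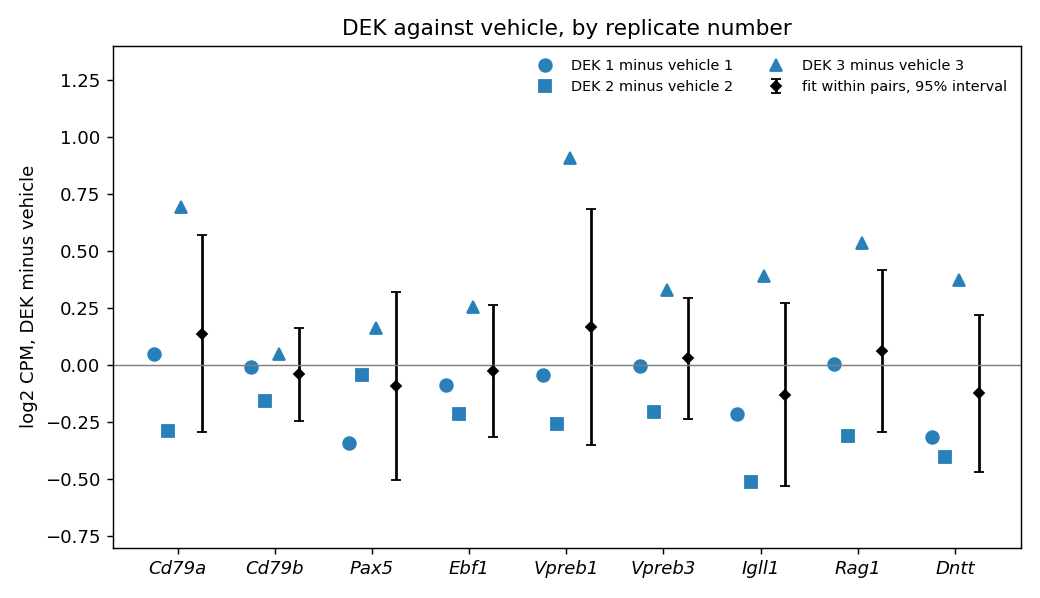
Log2 CPM difference, DEK minus vehicle, for each of the 9 genes in pairs 1, 2 and 3 (blue symbols) and the fit within pairs with its 95% interval (black). All 9 triangles of pair 3 lie above 0, all 9 squares of pair 2 lie below 0, and all 9 intervals span 0.

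Across replicate numbers, B-lineage transcripts were lower in both libraries numbered 3. The test of the replicate number beside treatment called 8 of the 9 (edgeR's quasi-likelihood test, adjusted p from 3.4e-06 in Cd79b to 0.044 in Igll1), where the background was 31.6% of all genes tested. The exception was Vpreb1 (adjusted p = 0.0784, edgeR). In all 9 genes both libraries numbered 3 were below the other 4, which held for 27.2% of all genes tested. With both libraries numbered 3 left out, the same test called 0 of the 9, and 1, Vpreb3, had an unadjusted p under 0.05 (adjusted p = 0.531, edgeR). Between numbers 1 and 2 the 9 genes were thus not told apart.

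The size of the fall in the libraries numbered 3 varied among the genes. Rag1 was 3.45-fold lower in DEK 3 than in DEK 1 and 2 (geometric mean) and 5.57-fold lower in vehicle 3 than in vehicle 1 and 2 (adjusted p = 0.000245 for the replicate number, edgeR). Vpreb3 was 2.74-fold lower with DEK and 3.7-fold lower with vehicle, and Cd79b 2.53-fold and 2.77-fold. Pax5 was 2.37-fold lower with DEK and 3.04-fold lower with vehicle, Ebf1 1.99-fold and 2.63-fold, and Cd79a 1.93-fold and 3.39-fold. Dntt fell less, by 1.48-fold with DEK and 2.46-fold with vehicle. Igll1 fell 1.24-fold with DEK and 2.09-fold with vehicle, and Vpreb1, which did not pass, had 1.23-fold and 2.56-fold lower levels. Each of the 9 genes was lower under each of the 4 scalings tried, and the median log2 difference of the 9 was -0.99 with DEK and -1.47 with vehicle, against -0.02 and -0.01 for all genes tested. Upper-quartile scaling moved the median of all genes to -0.13 with DEK and -0.08 with vehicle, and the library total alone to -0.24 and -0.11. The medians of the 9 genes were then -1.1 and -1.54, or -1.21 and -1.57.

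**Figure D3:**
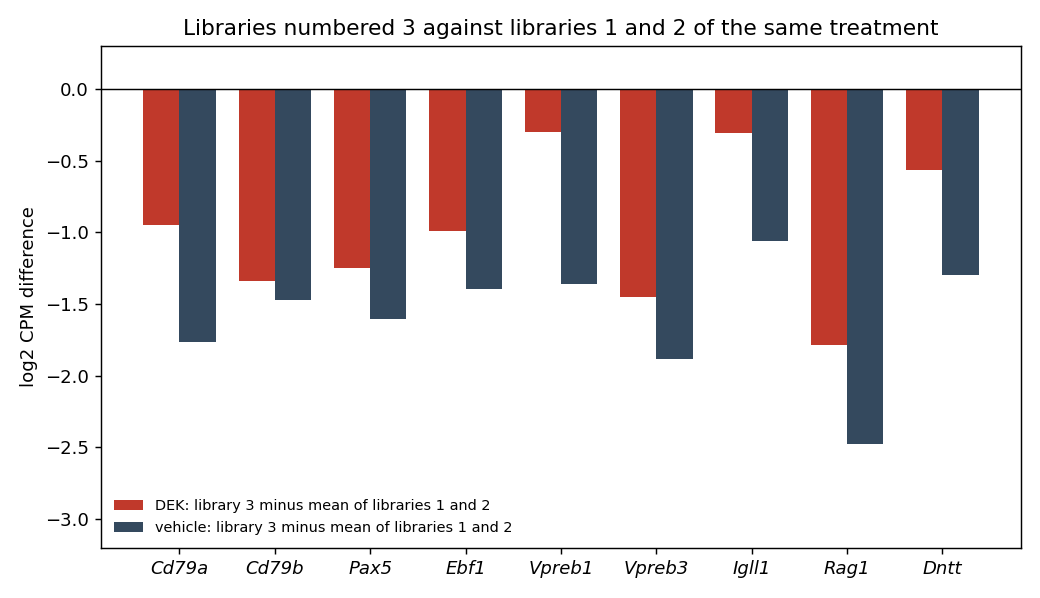
Log2 CPM difference between the library numbered 3 and the mean of libraries 1 and 2 for each gene, with DEK (red, left bar) and with vehicle (dark, right bar). All 18 bars lie below 0, Rag1 has the deepest in both groups, and Vpreb1 and Igll1 have the shallowest with DEK.

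The make-up of the B-lineage reads shifted with these unequal falls. Rag1 gave 23.1, 21.3 and 14.8% of the reads of the 9 genes in DEK 1, 2 and 3, and 22.3, 22.2 and 12.8% in vehicle 1, 2 and 3. Dntt gave 11, 10.9 and 17.0% with DEK, and 13.2, 12.1 and 16.5% with vehicle. Both libraries numbered 3 thus held a smaller share of Rag1 and a larger one of Dntt. Per length, the ratio of Dntt to Rag1 was 1.48, 1.6 and 3.6 in DEK 1, 2 and 3, and 1.85, 1.7 and 4.04 in vehicle 1, 2 and 3. The ratio of Igll1 to Vpreb3 per length was 0.139, 0.133 and 0.299 with DEK, and 0.16, 0.165 and 0.287 with vehicle. Rag1 to Rag2, the 2 subunits of 1 enzyme, stood at 3.5, 3.51 and 2.36 with DEK and 3.53, 3.56 and 1.99 with vehicle. The ratio of Cd79a to Cd79b per length moved less, between 0.331 and 0.475 with DEK and between 0.304 and 0.382 with vehicle.

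Ordered by level per length (RPKM, CPM divided by the exon length in the table in kilobases; mean ± SD over all 6 libraries), Cd79b led with 79.0 ± 32.5 RPKM, before Vpreb3 with 54.3 ± 25.9, Cd79a with 29.3 ± 11.8 and Dntt with 17.7 ± 5.73 RPKM. Rag1 with 9.38 ± 5.1 and Igll1 with 9.19 ± 2.72 RPKM followed, then Vpreb1 with 5.63 ± 1.72, Pax5 with 3.57 ± 1.61 and Ebf1 with 2.91 ± 1.06 RPKM. Each gene exceeded the next in 6 of 6 libraries, except that Rag1 exceeded Igll1 in 4 of 6 and lay below it in both libraries numbered 3. The order rests on the exon lengths, 1208 bases for Pax5 and 5325 for Ebf1. In CPM Ebf1 was the higher, with means of 15.1 with DEK and 15.9 with vehicle, against 4.13 and 4.50 for Pax5. Per length the 2 were close in DEK 1, with 3.48 RPKM for Pax5 and 3.46 for Ebf1. The SDs take in both libraries numbered 3. In vehicle 2, where the summed level was highest, Cd79b had 109.9 RPKM and Ebf1 3.86 RPKM.

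Of 52 other B-lineage genes in 5 lists, all of them tested, 1 was called within pairs, a share near the background of 1.28%, and 0 without pairing, where 1 of the 52, the same gene, had an unadjusted p under 0.05 (edgeR). DESeq2 and limma-voom without pairing each called 0. The called gene was Cd93, a receptor on early B-lineage cells that is also made by other progenitors and myeloid cells. It had 494.6, 452.8 and 410.6 CPM with DEK, against 908.6, 902.7 and 589.7 CPM with vehicle, and its groups did not overlap, as in 3.41% of all genes tested in that direction. It fell 1.74-fold (log2 fold change -0.80 ± 0.11, SE; adjusted p = 0.00599, edgeR within pairs), lower in 3 of 3 pairs. The median log2 fold change of the 52 genes within pairs was -0.01, with 22 above 0, against -0.0028 for all genes tested.

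By list, the transcription factors had 0 of 12 called within pairs. Their smallest p belonged to Spi1, a regulator of myeloid and B cells, whose log2 fold change was 0.29 (adjusted p = 0.251, edgeR), and to Irf4, which acts with it in late pre-B cells, with -0.52 (adjusted p = 0.388, edgeR). The receptor signalling genes had 0 of 12, led by the kinase adaptor genes Pik3ap1 at 0.22 and Blnk at -0.24 (adjusted p = 0.435 and 0.439, edgeR). The recombination partners had 0 of 10, where Lig4, a DNA ligase gene, stood at -0.13 and the polymerase gene Polm at 0.09 (adjusted p = 0.768 and 0.816, edgeR). The mature B-cell markers had 0 of 8, where the surface molecule genes Cd83 and Ms4a1 stood at -0.31 and -0.24 (adjusted p = 0.361 and 0.561, edgeR). The early surface genes had 1 of 10, that of Cd93. The counts without 1 pair brought in genes outside these rules. Leaving out pair 1 added Irf4 (-0.77) and Bst1 (0.83) to Cd93, and leaving out pair 3 added Il7r, the interleukin 7 receptor gene, at -0.51, and Cd22 at -0.53 (log2, edgeR within pairs, adjusted p = 0.0449, 0.00833, 0.0016 and 0.0207 in that order). Each of these fits called 3 of the 52. Of all genes tested, 181 of 13916 passed without pair 1 and 641 of 13809 without pair 3. Without pair 2, 0 of the 52 passed, as did 0 of the 14013 genes tested. An unadjusted p under 0.05 was then found for 2 of the 52, against 675 of the 14013. These were Fcrla at 0.29 and Cd93 at -0.69 (adjusted p = 0.997 and 0.483, edgeR).

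Across replicate numbers, 34 of the 52 other B-lineage genes were called (edgeR), against the background of 31.6%. Of the 52, 31 lay below and 9 above the other 4 libraries in both libraries numbered 3, positions that 27.2% and 27% of all genes tested held. Of the 34 called, 25 lay below and 7 above, while of the 4357 called among all genes 1685 lay below and 2410 above. Among the 25, chosen after their values were seen, were Spib, Pou2af1 and Foxo1, all transcription factor genes of the lineage, the kinase gene Blk and Rag2. Pou2af1 had 30.4 CPM in DEK 3 and 29.9 CPM in vehicle 3, while the other libraries held 89.7 and 76.0 CPM with DEK and 83.9 and 93.8 CPM with vehicle. The 7 were Cd24a and Bst1, surface genes that myeloid cells make too, Syk and Lyn of the receptor signalling list, Dclre1c and Nhej1 of the recombination partners, and Cd55. Dclre1c is uncertain, since its exons overlap those of Suv39h2 on the opposite strand. Cd24a had 1240.3 CPM in DEK 3 and 1153.7 CPM in vehicle 3, while the other libraries held 606.1 and 419.1 CPM with DEK and 582.7 and 606.3 CPM with vehicle. The recombination partners had a median log2 difference of -0.01 with DEK and -0.05 with vehicle, while the transcription factors had -0.65 and -0.87. The small median of the recombination partners covers moves both ways. Of these 10 genes 5 were called, of which 2 lay below and 2 above the other libraries in both libraries numbered 3. The receptor signalling genes had -0.10 and -0.51, the early surface genes -0.34 and -0.82, and the mature B-cell markers -0.39 and -0.79.

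Lists for other cell types gave these values beside the fall of the 9 genes. The median log2 difference of the libraries numbered 3 was 3.13 with DEK and 3.33 with vehicle for 9 neutrophil markers, all 9 of them called and higher. It was -0.55 and -0.43 for 8 stem and progenitor markers, and -0.09 and -0.48 for 11 T-cell and innate lymphoid markers. It was 0.01 and -0.52 for 7 NK-cell markers, and -0.07 and -0.70 for 8 markers of plasmacytoid dendritic cells, which can express Rag1 and Dntt too. It was -0.84 and -0.69 for 7 plasma cell markers. The test of the replicate number called 4 of the 8 stem and progenitor markers and 3 of the 11 T-cell and innate lymphoid markers. It called 2 of the 7 NK-cell, 3 of the 8 plasmacytoid and 3 of the 7 plasma cell markers (edgeR). Of all genes tested, 31.6% were called, and 27% lay above the other 4 libraries in both libraries numbered 3. No marker of these lists was at 0 in all libraries. The summed T-cell level was 78.3 to 92.9 CPM with DEK and 75.2 to 97.5 CPM with vehicle. The plasmacytoid sum was 289 to 356 CPM with DEK and 256 to 368 CPM with vehicle, and the plasma cell sum 847 to 1829 CPM and 743 to 1131 CPM. The most abundant marker of each list over the 6 libraries was S100a9 for neutrophils (1911 to 26300 CPM), Mpo for progenitors (3673 to 5929 CPM), Jchain for plasma cells (376.6 to 1342 CPM), Bst2 for plasmacytoid dendritic cells (75.3 to 166.8 CPM), Nkg7 for NK cells (110.0 to 150.9 CPM) and Tcf7 for T cells (17.8 to 29.5 CPM). Between DEK and vehicle within pairs, 1 marker of these 6 lists was called, the neutrophil gene Lcn2, which rose (log2 fold change 0.66 ± 0.12, SE; adjusted p = 0.0206, edgeR), while 1.28% of all genes tested were called. Without pairing Lcn2 was not called (log2 fold change 0.43, adjusted p = 0.9999, edgeR). The part of the neutrophil content in the lower B-lineage levels was not tested. In these bulk samples, fewer B-lineage cells and less RNA per cell cannot be told apart.

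**Figure D4:**
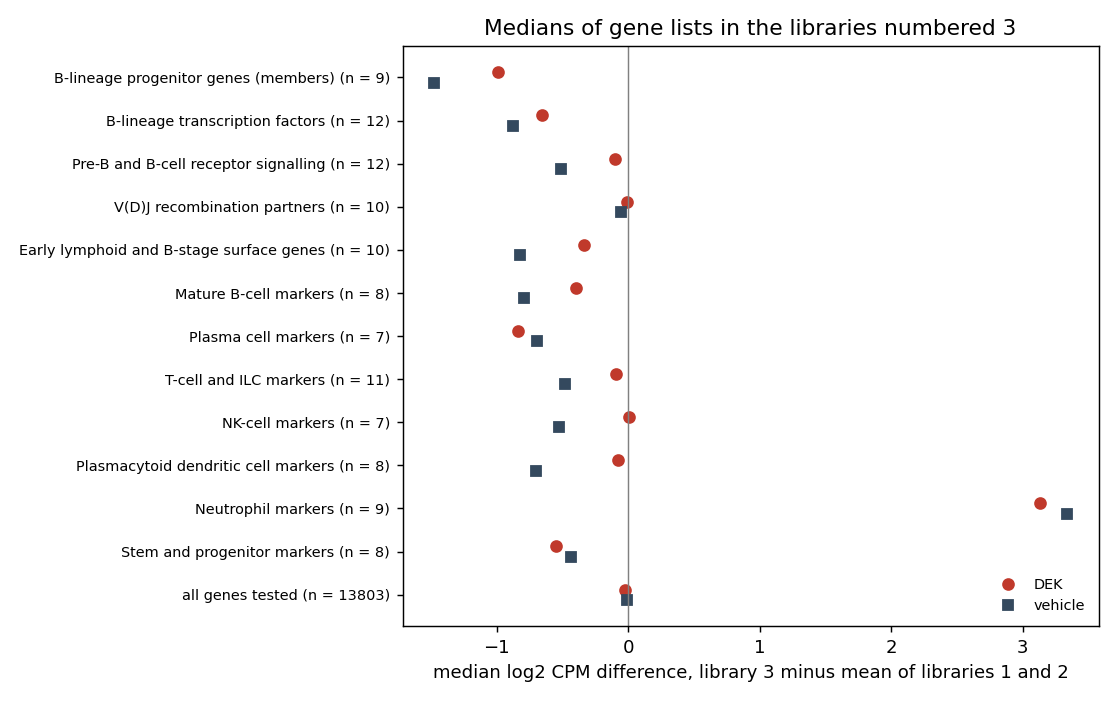
Median log2 CPM difference between the library numbered 3 and the mean of libraries 1 and 2 for each gene list, with DEK (red circles) and with vehicle (dark squares). The B-lineage progenitor genes have medians of -0.99 and -1.47, the neutrophil markers 3.13 and 3.33, and all genes tested -0.02 and -0.01.

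The 5 other genes whose log2 CPM most resembled the mean of the 9 over the 6 libraries, among 12100 genes with at least 1 CPM, were Klk8, Pafah1b3, Rcn3, Gfra1 and Tnfrsf19, with Pearson correlations of 0.997 to 0.998. These 6 points share the contrast of the libraries numbered 3 with the rest, so they are given as a description, with no p. Klk8 had 9.60, 9.99 and 5.37 CPM in DEK 1, 2 and 3, against 10.8, 12.4 and 4.29 CPM in vehicle 1, 2 and 3. Gfra1 is uncertain, since its exons overlap those of Gm10007 on the opposite strand.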

How the data were processed

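RNA of 6 libraries, 3 treated with DEK and 3 with vehicle, was analysed from 1 table of read counts per gene. Per the file headers, featureCounts 1.6.1 gave the deposited counts, summing exons per gene on mm10 from STAR alignments of lane 6, with no strand option. The submitters' processing notes list Trim Galore, STAR, edgeR and HTSeq, in place of which the header has featureCounts. The table also gives each gene's exon length in bases, per the file headers, which was used for RPKM.

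Because strand was not used and reads in exons of more than 1 gene were not counted, overlapping genes that are named are given as uncertain; exons of none of the 9 genes overlap another gene in the table. Genes passing filterByExpr (13803 of 18049 with a read) were tested in R 4.3.3 with edgeR 4.0.16 (TMM scaling, robust quasi-likelihood, two-sided, Benjamini-Hochberg over all genes, threshold 0.05), without a block. Log2 CPM used a prior count of 2. Standard errors come from the F statistic. A second fit tested the replicate number (2 coefficients) beside treatment. DESeq2 1.42.0 and limma 3.58.1 were alternatives. Scripts were tested on simulated counts.

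Equal replicate numbers were taken as pairs. Deviations from group means correlated by 0.55, 0.56 and 0.80 across genes for numbers 1, 2 and 3. Unequal numbers 1 and 2 also correlated (0.52 and 0.41). The contrast of the libraries numbered 3 enters the group means, and so the deviations of numbers 1 and 2. These correlations therefore cannot decide the pairing of numbers 1 and 2. The difference of DEK 1 minus DEK 2 correlated by 0.12 with that of vehicle 1 minus vehicle 2. The pairing of numbers 1 and 2 is thus unsure and comes from the titles' numbers alone. The labels do not say that libraries stem from separate animals, so p-values measure the spread between these libraries, which may be technical.

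The 9 genes and the 11 other lists were chosen with earlier results of these data known. Named from the 5 wider lists were up to 3 called genes per direction within pairs, or the 2 with the smallest p. Of the listed genes, 4 had no row, among them 3 immunoglobulin genes, and were not analysed here. Reads carry no molecular identifiers.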

Additional observations from a re-analysis of the deposited data

How the results depend on the processing

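For the 9 genes, 0 passed in DEK against vehicle under any of the 16 alternatives to the fit without pairing, 6 of which each leave out 1 library. Their log2 fold changes ran from -0.54 to 0.42 over the 144 values, with 41 of the other sign, and adjusted p from 0.0986 to 1 (edgeR, DESeq2 or limma). In that fit 0 genes of the whole table passed (360 at an unadjusted p under 0.05, edgeR). The replicate block called 177, and 181, 0 and 641 with pair 1, 2 or 3 left out. DESeq2 called 58 and limma-voom 0 (351 unadjusted). Without both libraries numbered 3 and with no block, 168 passed. Leaving out 1 library at a time gave 0 to 1 genes, the 1 being Scgb1a1 without DEK replicate 3. Of the 52 wider genes the replicate block called 1, or 0 to 3 with 1 pair left out, and 1, Cd93, passed without both libraries numbered 3. With all 6 libraries the block changed the call of no B-lineage gene but Cd93, and without both libraries numbered 3 it added Il7r and Cd22.

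Across replicate numbers, 4357 genes passed, and 113 to 4462 with 1 number left out, the lowest without number 3. Of the 9 genes, 8 passed, and 0 to 9 with 1 number left out. Igll1 lost its call with RLE scaling (adjusted p = 0.0515, edgeR) and without number 2 (adjusted p = 0.105, edgeR), and Vpreb1 gained one with upper-quartile scaling, with no filter and without number 1. The thinnest genes, Pax5 and Vpreb1, had 63 and 68 reads in vehicle 3. They also had the widest SEs within pairs, 0.19 and 0.23. Igll1 and Cd79a, with 164 and 500 reads in vehicle 3, came close to Pax5, each with an SE of 0.18. The part of counting error in these SEs was not tested. The spread between numbers limits the fit without pairing, whose interval for Rag1 spans folds of 0.273 to 3.26.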
